A study of Bos taurus with 32 samples.

Results

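Chaperones fold other proteins and proteasome subunits break them down. Genes of both kinds were picked out on a bovine array by name, as every name beginning with HSP, DNAJ or PDIA, with CCT and a digit from 2 to 8 or with PSM, a letter from A to G and a digit, together with CALR and CANX. Of 15208 probes, 60 carried such a name, and they read 59 genes. A known chaperone role was held by 31 of these genes and a known proteasome role by 24. The remaining 4 names, HSPBAP1, HSPC028, HSPC111 and HSPC117, fit the spelling but have no such role and were kept apart.

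The samples were endometrium, the lining of the uterus, from non-lactating Japanese Black cows on Day 15 of the oestrous cycle. The 4 repeat breeder (RB) cows had not conceived after at least 3 inseminations although palpation found no disorder of the uterus. The 4 non-RB cows had conceived, were then made to abort with prostaglandin F2α and had returned to normal cycles. From the middle of each horn the caruncular area (CAR), where the placenta attaches, and the intercaruncular area (ICAR), which holds the uterine glands, were dissected apart, in the horn ipsilateral and in the horn contralateral to the corpus luteum. Each of these 8 cells of group, area and horn was therefore read on 4 single-colour arrays, 32 in all. Samples with the same number within a group were taken as 1 cow, which the labels do not spell out, and every p value measures only the spread between these samples. All groups were cyclic rather than pregnant, and the RB cows were defined by breeding history and not by a known lesion.

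Heat shock proteins of the HSP70 family bind unfolded stretches of proteins, J-domain proteins (DNAJ) bring them their clients, and HSP90 matures receptors and kinases, including the receptors for progesterone and oestrogen. The CCT ring folds actin and tubulin, small heat shock proteins keep damaged proteins from clumping, and calreticulin (CALR), calnexin (CANX) and the protein disulphide isomerases work on secreted proteins in the endoplasmic reticulum. The proteasome is a barrel of alpha and beta subunits (20S) with a cap that recognises ubiquitin and feeds proteins in (19S). Interferon swaps some beta subunits for PSMB8, PSMB9 and PSMB10, which gives the immunoproteasome, and PSME1 with PSME2 forms another cap. In ruminant endometrium several genes of the immunoproteasome respond to the interferon tau of an early embryo, and stress-inducible HSP70 responds to heat.

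Each gene except DNAJA2, which has 2, is read by 1 probe of 60 bases, so its identity rests on that sequence. The following probes are shown because the HSP70 names on the array were ambiguous (HSPA1B, HSPA2) or because results below rest on them (CANX, CCT8). No part is in capitals, and positions in the genome are not given for them.
HSPA1B: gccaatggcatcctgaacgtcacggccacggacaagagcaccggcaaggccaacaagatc
HSPA2: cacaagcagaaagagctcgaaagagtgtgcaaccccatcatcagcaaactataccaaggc
CANX: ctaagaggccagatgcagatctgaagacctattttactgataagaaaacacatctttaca
CCT8: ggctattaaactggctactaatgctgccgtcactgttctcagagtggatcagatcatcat
The accession of the probe named HSPA1B belongs to HSPA1A in the RefSeq gene table of assembly ARS-UCD2.0, while the probe named HSPA1A had no match there. The inducible HSP70 genes are near-identical copies, so both probes may read either gene, and their values are given under the names on the array. HSP90AA1, HSPA9 and HSPA2 stood under older names, and 28 of the 60 probes matched the RefSeq table by accession.

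All levels are log2 values of the processed intensity relative to the 75th percentile of the same array, so that 0 is the brightness at that percentile. Across the 32 arrays this percentile lay between 1165 and 4857 intensity units and between 74.3% and 85.8% of probes were well above background. The 2 arrays of the slide numbered 1 here, scanned together, non-RB 2 in contralateral CAR and non-RB 1 in contralateral ICAR, stood apart. The 100 control spots for GAPDH had an SD of 1.32 and 0.873 on them against a median of 0.153 over all arrays. On the first of them CALR, PSMA3 and PSMB6 were lost as outlier spots, so their values there rest on 3 arrays. Markers of epithelium (EPCAM, KRT8, KRT19) and stroma (VIM, DCN, COL1A2) were well above background on all 32 arrays, and BPIFB1, a secreted product of the glands, was lower in CAR than in ICAR by 2.11 on the log2 scale, with a limma adjusted p of 0.161.

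The chaperones and the proteasome were detected on nearly all arrays. In all, 28 of the 31 chaperones and 23 of the 24 proteasome genes were well above background on all 32 arrays, the others on at least 31, and no probe of either list was saturated. Some members were dim all the same. Mean log2 levels were -6.43 for DNAJC5, -6.24 for DNAJC6, -6.16 for PSMB1, -5.94 for PDIA6, -5.28 for DNAJB5 and -5.17 for DNAJB12. The median spread of both lists was below that of all probes tested, which were not matched to them for brightness. The median SD between cows within a cell was 0.405 for chaperones, 0.327 for proteasome genes and 0.503 for all probes tested. The median distance between the lowest and the highest of the 8 cell means was 0.558 for chaperones, 0.391 for proteasome genes and 0.631 for all probes. The smallest SDs within cells were those of PSMC1, an ATPase of the 19S cap, at 0.153, of PSMD13, a subunit of its lid, at 0.164, and of CCT8 at 0.174. The widest range of cell means was that of HSPB8, a small heat shock protein that works with BAG3 to clear damaged proteins, from 0.39 in ipsilateral CAR of non-RB cows to 1.90 in ipsilateral ICAR of RB cows.

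**Figure D1:**
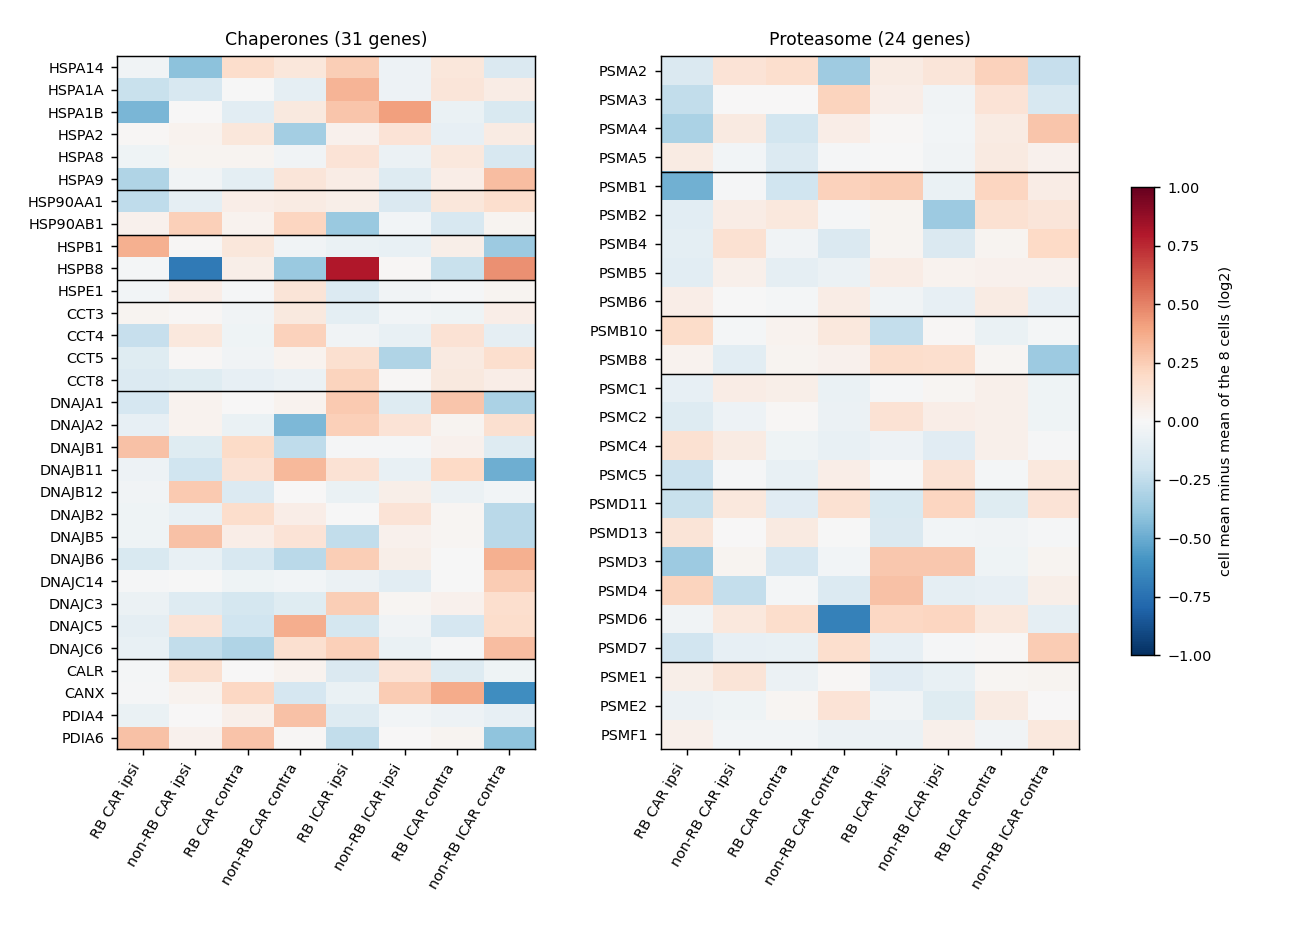
Mean log2 level of each chaperone and proteasome gene in the 8 cells of group, area and horn, relative to the gene's mean over the cells. The cells differ little for most genes, and HSPB8 has the widest range, from 0.39 to 1.90 on its own log2 scale.

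In ipsilateral CAR no chaperone and no proteasome gene differed between RB and non-RB cows at an adjusted p of 0.05 (limma, Benjamini-Hochberg over all probes), as was the case for 0.00% of the 13080 probes tested. Without adjustment 0 of 31 chaperones and 0 of 24 proteasome genes passed a limma p of 0.05, against 3.41% of all probes, and in none of them were the 4 RB and the 4 non-RB values fully apart, against 1.97% of all probes. Most members were lower in RB cows, 21 of 31 chaperones with a median difference of -0.08 and 16 of 24 proteasome genes with a median of -0.13, where the median of all probes was 0.02. No slide held arrays of both groups in ipsilateral CAR, so slide and group cannot be told apart in any value given for it. The highest difference was that of HSPB8. Its log2 levels in RB cows 1 to 4 were 1.0, 2.01, -0.06 and 1.39, and in non-RB cows -0.29, 0.66, 0.72 and 0.49. Cows RB 1, RB 2 and RB 4 were above every non-RB cow and RB 3 was among the lowest, so the groups overlapped. The difference was 0.69 with a standard error (SE) of 0.43. DNAJB1, the J-domain partner of inducible HSP70, read 1.24, 1.27, 1.51 and 2.05 in RB cows and 0.94, 0.96, 1.03 and 1.47 in non-RB cows, a difference of 0.42 with an exact permutation p of 0.0857. At the other end stood HSPA1B at -0.46 and CCT4, a subunit of the actin-folding ring, at -0.34.

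Among the proteasome genes in ipsilateral CAR, PSMA4, an alpha subunit, read 1.35, 1.30, 1.26 and 1.30 in RB cows and 2.07, 1.88, 1.53 and 1.34 in non-RB cows. The RB values lay close together and overlapped with non-RB cow 4 only, and the exact permutation p was 0.0571, next above the smallest value of 0.0286 that 4 against 4 allows. The alpha subunits were lower in 3 of 4 and the beta subunits in 4 of 5, with the beta subunit PSMB1 at -0.47, which was -0.044 without RB cow 1. Within the 19S cap PSMD4, the ubiquitin receptor, was at 0.46. The immunoproteasome subunits PSMB8 and PSMB10 were at 0.14 and 0.20, and the alternative cap at -0.07 for PSME1 and -0.01 for PSME2.

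In ipsilateral ICAR 0 of 31 chaperones and 0 of 24 proteasome genes passed the adjusted limma test, with 0.00% of 12889 probes doing so. HSPB8 alone among the chaperones and no proteasome gene passed an unadjusted limma p of 0.05, against 3.69% of all probes. HSPB8 read 2.10, 2.24, 1.10 and 2.17 in RB cows and 1.50, 1.02, 1.07 and 0.88 in non-RB cows. Cows RB 1, RB 2 and RB 4 were above all non-RB cows, while RB 3 lay inside their range. The level was 1.72-fold higher in RB cows, a log2 difference of 0.79 with SE 0.30 and a 95% interval from 0.12 to 1.45, and a limma p of 0.0252 that became 0.863 after adjustment. Only 2 slides held both groups, each with 1 cow of either group. The difference was 1.11 between RB 4 and non-RB 3 and 1.08 between RB 1 and non-RB 2. With the slide as a block it was 1.09 with an unadjusted limma p of 0.0555, which rests on the same pairs and leaves out RB 3. Among 29 markers of cell types, BPIFB1 and the T cell gene CD3G also passed an unadjusted p of 0.05 here, at 1.89 and 0.59, and their part in the HSPB8 values was not tested. In these pieces of whole tissue, fewer cells of a type and less RNA per cell cannot be told apart. The RB and non-RB values were fully apart for 2 of 31 chaperones, HSP90AB1 and CCT8, and for 0 of 24 proteasome genes, against 2.23% of all probes.

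HSP90AB1, the constitutive cytosolic HSP90, read 4.67, 4.41, 4.53 and 4.33 in RB cows and 4.82, 4.74, 5.01 and 4.74 in non-RB cows of ipsilateral ICAR. Every RB value was below every non-RB value, by a mean of -0.34 with SE 0.19, an exact permutation p of 0.0286 and an adjusted limma p of 0.863. On the slides that held both groups the difference was -0.68 (RB 4 and non-RB 3) and -0.061 (RB 1 and non-RB 2), each from 1 pair of cows. With quantile normalization the difference over all cows was -0.14. CCT8 read 3.34, 3.18, 3.28 and 3.21 against 3.16, 3.18, 2.85 and 2.99, where the lowest RB and the highest non-RB value differed only past the second decimal. Its difference was 0.21 with SE 0.18 and an exact permutation p of 0.0286. Groups of 4 that are fully apart always give this value, the smallest the design can, so it restates the separation. CCT8 was outside the rule for named genes and was singled out after its values were seen.

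By role, CALR, CANX, PDIA4 and PDIA6 were all lower in RB cows in ipsilateral ICAR, and none passed the test. Their median was -0.27, from CANX at -0.32 to PDIA4 at -0.10. Not every gene of the endoplasmic reticulum went this way. DNAJC3, a J-domain protein found there, had the highest of its 8 cell means in these RB samples, at 0.83. Without RB cow 3, which read -4.22, the CANX difference was 0.17. All 5 constitutive beta subunits of the 20S core were higher, with a median of 0.17, led by PSMB2 at 0.39. The PSMB2 value rested on non-RB cow 2, which read -0.86 beside 1.17, 0.73 and 0.91 in the other non-RB cows, and without that cow the difference was negative. The same cow was also low for the beta subunit PSMB4, at 2.84 beside 3.99 to 4.21, so the shared direction leans in part on its array. Over all members the medians were 0.04 for chaperones and 0.02 for proteasome genes, beside -0.03 for all probes.

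In contralateral CAR 0 of 31 chaperones and 0 of 24 proteasome genes passed the adjusted limma test (0.00% of 13135 probes), 0 and 0 passed without adjustment (1.74% of all probes), and in 0 and 0 the groups were apart (1.37%). The medians were -0.03 for chaperones, -0.05 for proteasome genes and 0.00 for all probes. Among chaperones, DNAJC5, the cysteine string protein of secretory vesicles, was at -0.56, DNAJC6, the auxilin that strips clathrin from vesicles, at -0.46, and HSPA2 and DNAJB1 were both at 0.45. The DNAJC6 value was -0.037 with normexp background correction and -0.97 with the slide as a block, and leaving out 1 cow at a time gave -0.77 to -0.17. HSPB8 read 1.32, 1.36, 0.92 and 1.07 in RB cows and -0.25, 1.69, 1.07 and 0.43 in non-RB cows, a difference of 0.43 with SE 0.39. The highest proteasome values rested on 1 array of slide 1. PSMD6, a 19S lid subunit, read -2.46, -4.84, -1.62 and -1.88 in non-RB cows and between -2.11 and -1.56 in RB cows, a difference of 0.86 with SE 0.63. PSMA2, an alpha subunit, read 2.26, -1.46, 1.75 and 1.63 in non-RB cows and between 1.30 and 1.89 in RB cows. Its difference was 0.52 over all cows and -0.31 without non-RB cow 2.

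In contralateral ICAR 0 of 31 chaperones and 0 of 24 proteasome genes passed the adjusted limma test (0.00% of 12980 probes). CANX alone among the chaperones, and no proteasome gene, passed an unadjusted limma p of 0.05, against 1.60% of all probes, and no member had its groups apart, against 1.48%. CANX read -1.91, -2.15, -2.29 and -2.83 in RB cows and -4.06, -2.25, -3.53 and -3.31 in non-RB cows. Non-RB cow 2 lay within the RB range and the other non-RB cows below it, with the lowest value on an array of slide 1. The level was 1.99-fold higher in RB cows, a log2 difference of 0.99 with SE 0.39 and a 95% interval from 0.10 to 1.89, a limma p of 0.033 and an exact permutation p of 0.0857. On the 2 slides that held both groups, each with 1 cow of either group, it was 0.70 (RB 4 and non-RB 3) and 0.34 (RB 1 and non-RB 2). With the slide as a block it was 0.52, which rests on the same pairs. HSPB8 was here lower in RB cows, at -0.68, with 0.94, 1.48, -0.54 and 1.65 in RB cows and 2.18, 0.82, 2.07 and 1.17 in non-RB cows. The groups overlapped widely, and the difference was 0.069 when scan session entered as a block. DNAJB11, the J-domain partner of the HSP70 of the endoplasmic reticulum, was at 0.69, which rested on a value of -3.17 in non-RB cow 1 on slide 1. The proteasome median was 0.02 and the chaperone median -0.03, beside 0.02 for all probes.

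**Figure D2:**
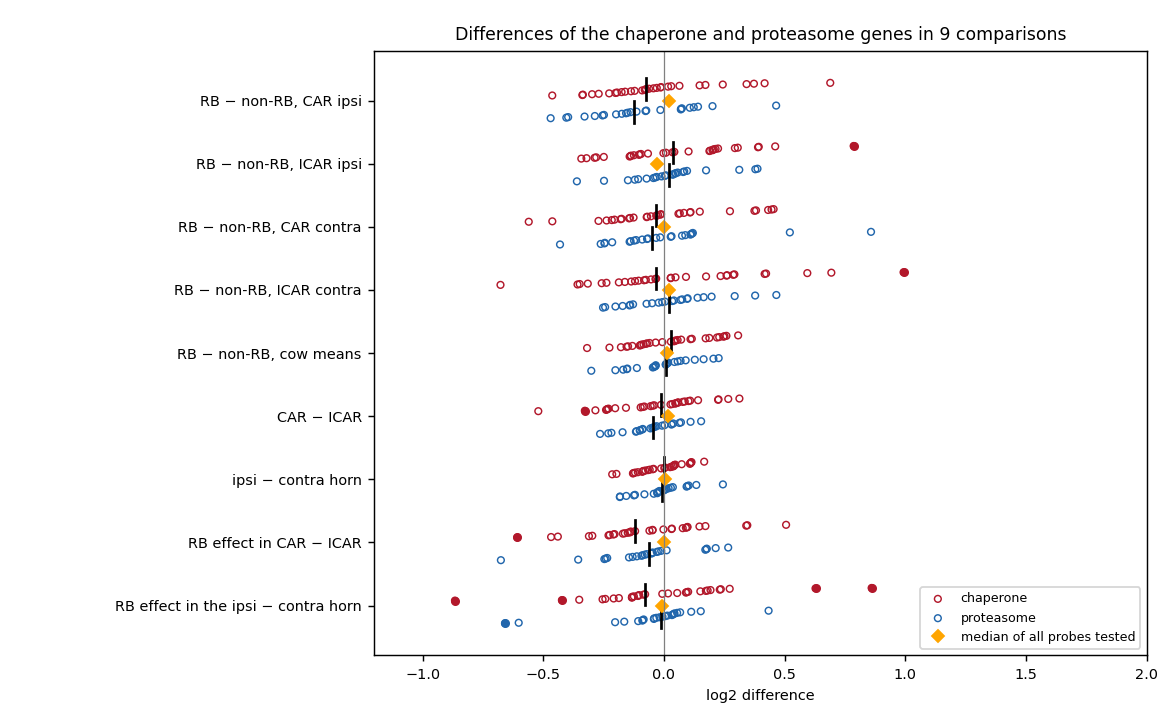
Log2 difference of each chaperone (red) and proteasome gene (blue) in the 9 comparisons, with the black bar at the median of the list and the orange diamond at the median of all probes tested. Filled points passed an unadjusted limma p of 0.05, and no gene passed after adjustment.

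Averaged over the 4 arrays of each cow, RB and non-RB cows were compared as a whole. No chaperone and no proteasome gene passed the adjusted limma test (0.00% of 12919 probes) or the unadjusted one (2.21% of all probes), and none had its groups apart (1.19%). The medians were 0.03 for chaperones, with 16 of 31 higher in RB cows, 0.01 for proteasome genes, with 13 of 24 higher, and 0.01 for all probes. The 95% interval of the difference lay within a 2-fold change in either direction for all 31 chaperones and for 23 of the 24 proteasome genes. Within single compartments it did so for 18 to 26 chaperones and for 18 to 21 proteasome genes. The largest differences over the cow means were those of HSPB8 at 0.31 and DNAJB1 at 0.26 on one side and DNAJC5 at -0.32 and HSP90AB1 at -0.23 on the other. Among proteasome genes they were those of PSMD6 at 0.23 and PSMD4 at 0.20, and of PSMD11 at -0.30 and PSMA4 at -0.20. Leaving out 1 cow at a time gave 0.14 (without RB cow 2) to 0.61 (without RB cow 3) for HSPB8, 0.17 to 0.35 for DNAJB1, -0.47 to -0.12 for DNAJC5 and -0.35 to -0.14 for HSP90AB1, the DNAJC5 value nearest to 0 being the one without non-RB cow 1. It gave -0.43 to -0.17 for PSMD11, -0.27 to -0.049 for PSMA4, again nearest to 0 without non-RB cow 1, and 0.073 (without non-RB cow 2) to 0.36 for PSMD6. The PSMD4 value was -0.10 without non-RB cow 3, and the HSPB8 value was 0.62 with the slide as a block.

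Some genes had the same sign in all 4 compartments, which share the same cows. Lower in RB cows in all 4 were 5 of 31 chaperones (CALR, HSP90AB1, DNAJB12, DNAJC5 and HSPE1) and 4 of 24 proteasome genes (PSMC5, PSMD11, PSMD7 and PSME1), against 14.1% of 12702 probes. Higher in all 4 were 2 chaperones (HSPA14 and HSPB1) and 1 proteasome gene (PSMC4), against 15.8% of all probes. PSMD11, a 19S lid subunit, had differences of -0.33 in ipsilateral CAR, -0.36 in ipsilateral ICAR, -0.26 in contralateral CAR and -0.25 in contralateral ICAR. Within each of these compartments its RB and non-RB values overlapped, and over the cow means its exact permutation p was 0.2. With the slide as a block its sign turned in the contralateral horn, to 0.067 in CAR and 0.0090 in ICAR.

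Of the 8 measured genes of the heat shock response 0 passed the test over the cow means, with 5 higher and 3 lower in RB cows and a median difference of 0.11. They ran from HSPA1B at -0.18 with SE 0.35 to DNAJB1 at 0.26 with SE 0.20, and DNAJA1 was at 0.19 with SE 0.20. HSPA8, the constitutive cytosolic HSP70, lay between 4.59 and 5.51 on all 32 arrays and differed by 0.11 over the cow means. HSP90AA1, the inducible HSP90, differed by -0.01, and the mitochondrial co-chaperonin HSPE1 by -0.09. HSPB1, the small heat shock protein also known as HSP27, differed by 0.23 with SE 0.22. HSPA1A differed by 0.12 with SE 0.35. Non-RB cow 3 read 1.32 in ipsilateral CAR, 1.31 in ipsilateral ICAR, 1.21 in contralateral CAR and 1.57 in contralateral ICAR, the lowest value of its cell each time, a mean deviation of -1.07 from its cells. The other cows' deviations ran from -0.28 to 0.54. For HSPA1A the variance of the cows' mean deviations was 74.1% of its sum with the variance within cows. The median of this share was 39.5% over the chaperones and 40.7% over all probes. A cow's mean also carries part of the variance within cows, so the share overstates the part of the cow. HSPA1B was also low in non-RB cow 3, with a deviation of -0.78. HSPA5, HSPH1, HSPD1, CCT2, PSMD1 and PSMD14 were not analysed here.

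**Figure D3:**
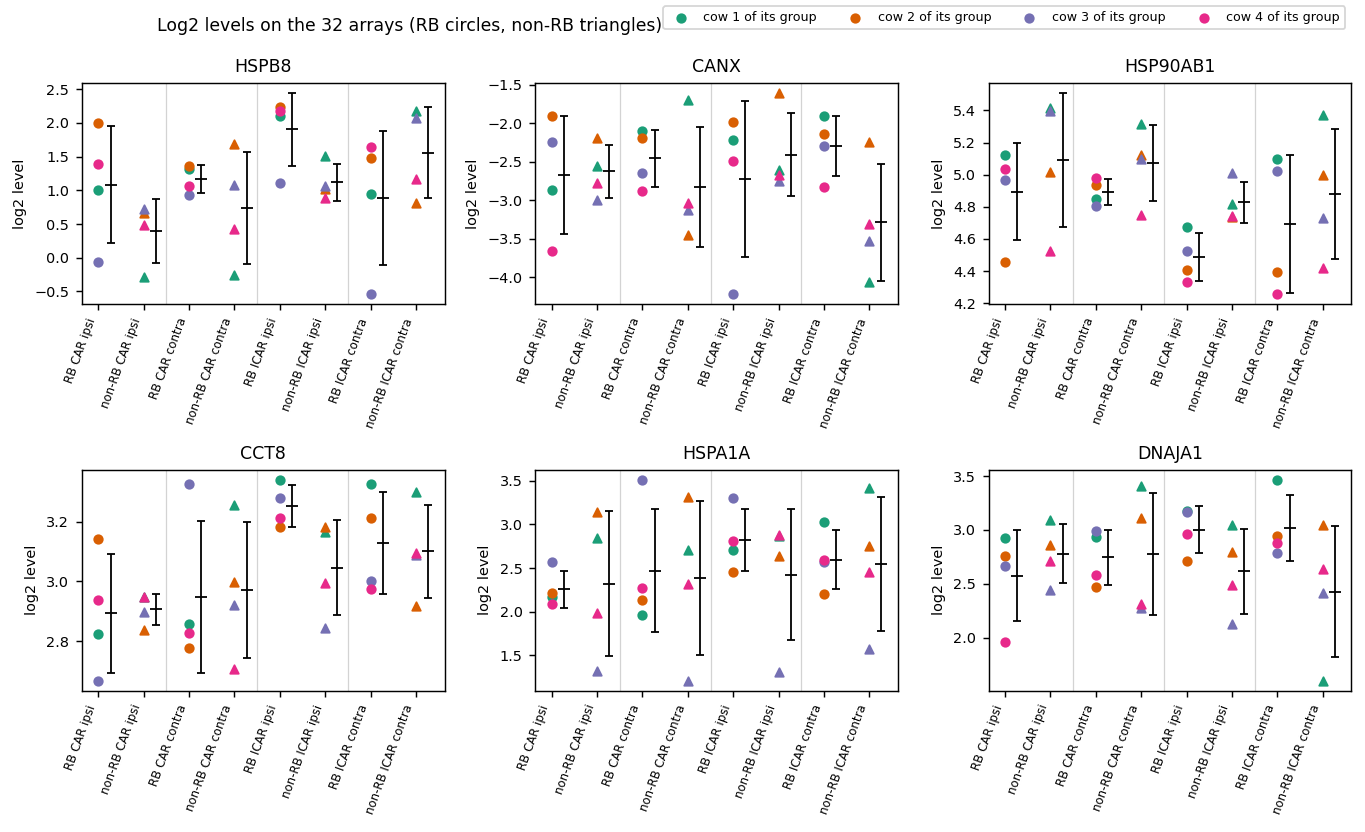
Log2 level on each of the 32 arrays for HSPB8, CANX, HSP90AB1, CCT8, HSPA1A and DNAJA1, with RB cows as circles, non-RB cows as triangles, colour for the cow number within its group, and mean ± SD beside each cell. HSP90AB1 and CCT8 separate the groups in ipsilateral ICAR, and non-RB cow 3 is lowest for HSPA1A in each of its 4 cells.

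CAR and ICAR were next compared over all 8 cows, with the horns averaged. No chaperone and no proteasome gene passed the adjusted limma test (0.00% of 12919 probes), and DNAJB6 alone passed without adjustment, against 10.02% of all probes. This limma fit did not pair the areas of a cow, while the exact permutation test did. With the cow as a block, 4 chaperones and 0 proteasome genes passed an unadjusted limma p of 0.05, and none passed adjustment. The share of all probes under that fit is not given here, so this count cannot be read as particular to the members. DNAJB6, a J-domain protein that holds back aggregation, was lower in CAR by -0.33 with SE 0.14, a limma p of 0.028 and an adjusted p of 0.407. Its CAR minus ICAR differences were -0.61, -0.15, 0.04 and -0.39 in RB cows and -0.38, -0.64, -0.28 and -0.21 in non-RB cows, negative in 7 of the 8 cows, with an exact permutation p of 0.0156. In 2 of 31 chaperones and 0 of 24 proteasome genes all 8 cows had the same direction, against 2.70% of all probes. The first was HSP90AB1, higher in CAR by 0.27, with differences of 0.10, 0.29, 0.11 and 0.71 in RB cows and 0.27, 0.20, 0.37 and 0.06 in non-RB cows. The other was CCT8, lower in CAR by -0.20, with -0.49, -0.24, -0.14 and -0.21 in RB cows and -0.13, -0.13, -0.06 and -0.22 in non-RB cows. When all 8 cows go the same way the exact permutation p is always 0.00781, the smallest that 8 cows allow, so it restates that pattern. Their adjusted limma p values were 0.546 and 0.508. With the scan session as a block both passed adjustment, HSP90AB1 at 0.0387 and CCT8 at 0.0456, under a fit that called 12.7% of all probes.

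The areas had some sign patterns by role, none of which comes with a gene past the adjusted test. All 6 HSP70 genes were lower in CAR, with a median of -0.12 from -0.24 for HSPA1A to -0.01 for HSPA8. CALR, CANX, PDIA4 and PDIA6 were all higher, with a median of 0.11 and PDIA6 at 0.31. All 4 alpha subunits of the proteasome core were lower, with PSMA4 at -0.17. PSMB10 at 0.15 and PSMD13 at 0.11 were the highest proteasome values and PSMD3 at -0.26 and PSMB1 at -0.23 the lowest, the last being -0.016 without RB cow 1. The list medians were -0.01 for chaperones and -0.05 for proteasome genes, beside 0.02 for all probes. Cell makeup was read only through markers, of which 0 of 29 passed the adjusted limma test. Of the marker lists, all 4 epithelial genes were lower in CAR with a median of -0.37 and all 5 stromal genes higher with a median of 0.23. An unadjusted limma p of 0.05 was passed by 4 of 29 markers (EPCAM, BPIFB1, DES and COL1A2), against 10.02% of all probes. Their part in the values of the members was not tested.

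HSPB8 had the lowest area difference of the members, -0.52 with SE 0.28. Its CAR minus ICAR differences were -0.36, -0.18, 0.15 and -0.68 in RB cows and -2.12, 0.26, -0.67 and -0.57 in non-RB cows. Non-RB cow 1 was far below the others.

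The ipsilateral and contralateral horns were compared over the same 8 cows. No chaperone and no proteasome gene passed the limma test with adjustment (0.00% of 12919 probes) or without it (0.542%), both medians were within 0.01 of 0, and the 95% interval lay within a 2-fold change for all 31 chaperones and all 24 proteasome genes. In 2 of 31 chaperones and 0 of 24 proteasome genes all 8 cows had the same direction, against 0.642% of all probes. HSP90AA1 was lower on the ipsilateral side by -0.21 with SE 0.14, with -0.41, -0.09, -0.10 and -0.15 in RB cows and -0.13, -0.42, -0.04 and -0.39 in non-RB cows. HSPA9, the HSP70 of the mitochondrion, was lower by -0.20 with SE 0.13, with -0.26, -0.01, -0.12 and -0.01 in RB cows and -0.26, -0.59, -0.26 and -0.07 in non-RB cows. In RB cows 2 and 4 the HSPA9 difference was close to 0. Both genes had an exact permutation p of 0.00781, which follows from the shared direction alone, and their adjusted limma p values were 1.0. With the cow as a block, which pairs the horns, they were the 2 chaperones that passed an unadjusted limma p of 0.05, at 0.0245 and 0.0462, and 0 proteasome genes did. With the slide or the scan session as a block 1 chaperone and 4 of 24 proteasome genes passed it in each, and none passed adjustment in these fits. The shares of all probes under the fits with a block are not given here. Without them the counts cannot be read as particular to the members. Among proteasome genes PSMD6 was at 0.24 and PSMB2 and PSMD7 at -0.18.

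The next question was whether the RB effect differed between the horns. It is answered by the ipsilateral minus contralateral difference of each cow, with CAR and ICAR averaged, compared between the groups. No member passed adjustment (0.00% of 12919 probes). Without adjustment 4 of 31 chaperones (HSPB8, CANX, DNAJC6 and DNAJB5) and 1 of 24 proteasome genes (PSMA2) passed a limma p of 0.05, against 5.98% of all probes. The cow values were fully apart between the groups for 3 chaperones and 0 proteasome genes, against 3.95% of all probes. For 2 of these, HSPB8 and DNAJC6, every RB cow had 1 sign and every non-RB cow the other, against 0.975% of all probes.

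HSPB8 was higher on the ipsilateral side in RB cows, by 0.42, 0.71, 0.33 and 0.42, and lower there in non-RB cows, by -0.36, -0.41, -0.68 and -0.12. The difference of effects was 0.86 with SE 0.18, a limma p of 0.000801 and an adjusted limma p of 0.799. The exact permutation p of 0.0286 follows from the groups being fully apart. These HSPB8 values average the areas, and the split did not hold within either area. In CAR alone RB cows 1 and 3 were lower on the ipsilateral side, and non-RB cow 4 was higher there. In ICAR alone every RB cow was higher on the ipsilateral side, and so was non-RB cow 2. DNAJC6 was higher on the ipsilateral side in RB cows, by 0.20, 0.48, 0.07 and 0.19, and lower in non-RB cows, by -0.60, -0.71, -0.10 and -0.15. Its difference of effects was 0.63 with SE 0.20 and a limma p of 0.0106. CANX went the other way, with -0.53, 0.22, -0.76 and -0.22 in RB cows and 0.30, 0.95, 0.46 and 0.45 in non-RB cows, a difference of -0.87 with SE 0.25. RB cow 2 was positive for CANX but below every non-RB cow.

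Leaving out 1 cow at a time, the difference of effects was 0.76 to 0.95 for HSPB8, 0.52 to 0.72 for DNAJC6 and -1.05 to -0.72 for CANX. With normexp background correction it was 0.33 for DNAJC6 and -0.56 for CANX. Without the 2 arrays of slide 1 alone, non-RB cow 1 has CAR only and non-RB cow 2 has ICAR only in the contralateral horn, so that area and slide cannot be told apart in the values that follow. The difference of effects was then 0.45 for HSPB8 (limma p of 0.154), 0.37 for DNAJC6 (0.0317) and -0.42 for CANX (0.236). PSMA2 was at -0.66 over all arrays and at 0.06 there. DNAJB5 was at -0.42 with a limma p of 0.0496 over all arrays and at -0.20 there. Of 29 markers, CD79A (-0.68), KRT19 (0.46), BPIFB1 (0.87) and DCN (-0.65) passed an unadjusted p of 0.05 in the same comparison, and all 3 smooth muscle markers were negative with a median of -0.21. The part of glands, stroma, muscle and B cells in the member values was not tested.

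**Figure D4:**
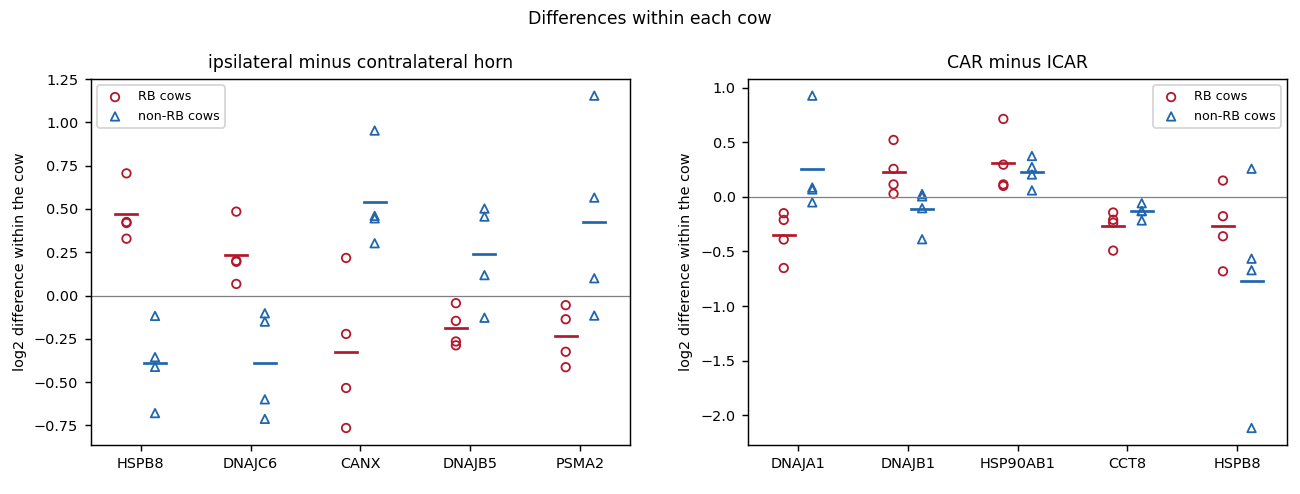
Differences within each cow on the log2 scale, ipsilateral minus contralateral on the left and CAR minus ICAR on the right, with a point for each cow and a line at the group mean. The left side averages CAR and ICAR, and its non-RB values include the 2 arrays of slide 1. For HSPB8 the 4 RB cows lie above 0 and the 4 non-RB cows below it there. For HSP90AB1 all 8 cows lie above 0 on the right.

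The RB effect was compared between CAR and ICAR in the same manner. No member passed adjustment (0.00% of 12919 probes), DNAJA1 alone passed without it (0.882% of all probes), and the groups were apart for 2 of 31 chaperones, DNAJA1 and DNAJB1 (0.704%). No member had opposite signs in all cows of the groups (0.116%). DNAJA1, a J-domain protein that serves HSPA8, had CAR minus ICAR values of -0.39, -0.21, -0.15 and -0.65 in RB cows and 0.93, 0.07, 0.09 and -0.05 in non-RB cows, a difference of -0.61 with SE 0.27 and a limma p of 0.0474. The value of 0.93 came with a level of 1.60 on slide 1, and without that slide, which leaves this cow with ICAR of the ipsilateral horn only, the difference was -0.40. DNAJB1 had 0.52, 0.03, 0.11 and 0.26 in RB cows and 0.00, -0.39, -0.10 and 0.03 in non-RB cows, a difference of 0.35 with an exact permutation p of 0.0286. Its groups were apart by less than 0.01. In the proteasome PSMB1 was at -0.68, which was 0.038 with normexp background correction, and PSMD6 at 0.27, which was -0.11 without non-RB cow 2. The list medians were -0.12 for chaperones and -0.06 for proteasome genes.

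Whether members rose and fell together was described by Pearson's r between genes over the 32 arrays after the cell means were removed, with no test. The points share cows, arrays and hybridisation quality. The median r was 0.0845 over 465 pairs of chaperones and 0.116 over 276 pairs of proteasome genes, beside 0.0095 over all pairs of probes tested. The 9 constitutive subunits of the 20S core had a median r of 0.285 over 36 pairs and the 5 beta subunits 0.395 over 10 pairs, the 4 alpha subunits -0.217 over 6 pairs, and the 10 measured subunits of the 19S cap had 0.0905 over 45 pairs. Without the 2 arrays of slide 1 the medians were 0.354 for the core, 0.413 for the beta subunits, 0.253 for the alpha subunits and 0.0911 for the cap. The 6 HSP70 genes had a median of 0.211 over 15 pairs. The 12 J-domain proteins had a median of -0.0651, which turned to 0.0908 without slide 1.

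Across the lists, over pairs of a chaperone and a proteasome gene, the median r was 0.0956. The closest pairs were of this kind, CCT5 with PSMA4 at 0.885 and HSPA1B with PSMD3 at 0.840. Without slide 1 the closest pair was PSMB6 with PSME1 at 0.920, both of the proteasome, ahead of CCT5 with PSMA4 at 0.896. The immunoproteasome subunits PSMB8 and PSMB10 had an r of -0.305, and -0.218 without slide 1. PSMB8 lay between -2.14 and -0.09 over the arrays, and its differences between RB and non-RB cows were 0.14, 0.01, -0.02 and 0.38 in ipsilateral CAR, ipsilateral ICAR, contralateral CAR and contralateral ICAR. PSMB5, which it replaces in the immunoproteasome, differed by -0.15, 0.04, -0.03 and 0.00 in the same order. PSMB9, named on the array only through its accession and so no member, was lower in RB cows by -0.27 over the cow means, with SE 0.19.

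**Figure D5:**
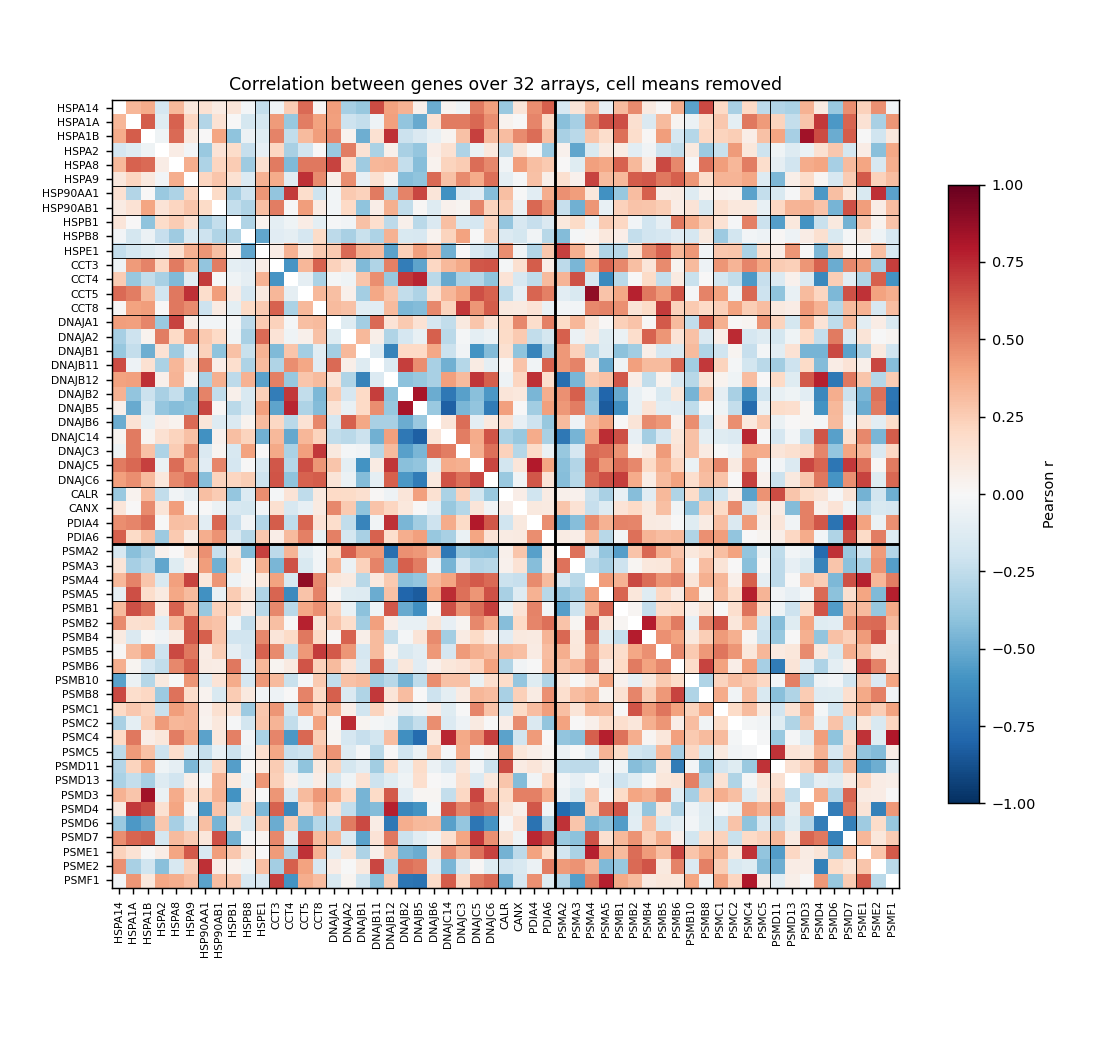
Pearson's r between genes over the 32 arrays after removing the mean of each of the 8 cells, with chaperones and proteasome genes ordered by role. Pairs among the 20S beta subunits stand out, with a median r of 0.395, beside 0.0095 over all pairs of probes.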

How the data were processed

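Total RNA of 32 endometrial samples was hybridised by the authors to a bovine oligonucleotide array of 15744 features, and the deposited intensity of each spot is the background-subtracted, processed signal of Agilent Feature Extraction 9.5, per the file headers. A series-wide log2 table, deposited as well, served only as an alternative. From the processed intensity, log2 was taken and the 75th percentile of each array's non-control probes was subtracted; outlier spots were left out. Probes that passed the scanner's background test on 2 or more of 8 arrays (8 of 32 where all cells entered), with at least 3 values per group, were fitted with limma 3.58.1 in R 4.3.3 and adjusted by Benjamini-Hochberg over all probes tested, which was tested on simulated data. Exact permutation tests were two-sided (Python 3.11.15, scipy 1.17.1). RB cows and non-RB cows were compared per compartment and on cow means, since the 4 samples of a cow are not independent. Horns of a cow deviated together (r from 0.469 to 0.799 in 8 of 8 cows; the pairing comes from the shared number), CAR and ICAR in 7 of 8.

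Named genes were preset anchors and, per comparison and list, the 2 members of largest difference in each direction. The members and lists were chosen with earlier results of these data known. Alternatives were no filter, a stricter filter, quantile normalization, normexp with an offset of 50, the deposited log2 values, the methods' t-test, slide or scan session as a block, the cow as a block, all 32 arrays in 1 fit, all names that fit the rule, and leaving out a cow or slide 1. The number of arrays limits the precision.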

Additional observations from a re-analysis of the deposited data

Results flagged for a closer look

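In each cell of 4 arrays the highest and the lowest value of every member were tested for standing apart from the other values (Dixon's test at its 95% critical value). Chance alone gives about 1 in 20 such groups. Of 453 groups 37 had such a value, 8 of them on the 2 arrays of slide 1 and 29 elsewhere.

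On slide 1, non-RB cow 1 in contralateral ICAR stood apart for DNAJB11 (-3.17), DNAJB2 (0.076), DNAJC14 (-1.94), HSP90AA1 (3.99), HSPE1 (3.19) and PSMB8 (-2.14), and for the median over the proteasome genes (0.29). Non-RB cow 2 in contralateral CAR stood apart for PSMA2 (-1.46).

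Non-RB cow 2 in ipsilateral ICAR stood apart for CANX (-1.61), HSPA14 (-3.84), PSMC5 (4.08), PSMB4 (2.84) and PSME2 (1.92). RB cow 4 in ipsilateral CAR stood apart for PDIA4 (-5.43), PSMA2 (0.87), PSMB2 (-0.36) and PSMB4 (3.63), and in other cells for HSPA2 in contralateral CAR (-1.29), HSPA8 in contralateral ICAR (4.70) and HSPA9 (-1.90) and DNAJA2 (-1.54) in ipsilateral ICAR. RB cow 3 stood apart in contralateral CAR for CCT8 (3.32), HSPE1 (3.77) and PSMB4 (4.09), and in ipsilateral ICAR for HSPB8 (1.10) and PSMB10 (2.41).

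RB cow 2 stood apart for HSPA1B in ipsilateral CAR (-0.71) and contralateral CAR (-1.93) and for PSME2 in contralateral CAR (2.85), and RB cow 1 for DNAJC14 in ipsilateral CAR (-4.13). Non-RB cow 4 stood apart in ipsilateral CAR for DNAJB1 (1.47), PDIA6 (-7.22) and PSMD7 (1.75). Non-RB cow 1 stood apart in contralateral CAR for DNAJB11 (0.67) and PSMB5 (3.08), non-RB cow 2 in contralateral ICAR for CALR (5.26), and non-RB cow 3 in ipsilateral ICAR for HSPA1A (1.31).

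The ipsilateral minus contralateral difference was positive in every RB cow and negative in every non-RB cow for HSPB8, with a difference of effects of 0.86, and for DNAJC6, with 0.63. The exact permutation p of 0.0286 for each follows from that split alone, and neither passed adjustment by limma. These differences average CAR and ICAR, and for HSPB8 the split did not hold within either area alone. The non-RB values include the 2 arrays of slide 1, without which both differences of effects were smaller.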

How the results depend on the processing

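No member was called at an adjusted p of 0.05 under any alternative run, except CCT8 and HSP90AB1 between CAR and ICAR with the scan session as a block (2 chaperones). That fit called 1641 probes in all, the slide as a block 909 and the fit of 32 arrays 174. Of 670 values of named genes under alternatives other than leaving out a cow, 649 kept direction and call and 19 turned sign, and the cause was not tested.

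Among list medians, the proteasome in ipsilateral ICAR was 0.088 with quantile normalization, and in contralateral CAR -0.24 with the slide and -0.20 with the scan session as a block, where the median of all probes moved by 0.11 and 0.12. The chaperone median of the RB effect in CAR against ICAR was 0.041 with normexp, where all probes moved by 0.14, and that of the RB effect between the horns was 0.070 with quantile normalization and 0.027 with normexp. Leaving out single cows gave -0.0061 to 0.095 for chaperones and -0.085 to 0.069 for the proteasome in ipsilateral ICAR (without RB cow 1 and non-RB cow 2 the highest and the lowest), and -0.079 to 0.026 for chaperones between the horns (RB cow 1).

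Single genes turned sign mostly in the contralateral horn. With the slide as a block, contralateral CAR gave 0.067 for PSMD11 and -0.64 for PSMA2, and contralateral ICAR 0.089 for DNAJB6, -0.062 for DNAJB11, 0.0090 for PSMD11 and 0.028 for PSMD7. PSMD6 over the cow means was then -0.032 and PSMB8 between the horns -0.060. With the scan session as a block, contralateral CAR gave -0.58 for PSMA2, and contralateral ICAR 0.069 for HSPB8, 0.074 for DNAJB6, -0.039 for DNAJB11, 0.031 for PSMD11, 0.0055 for PSMD7 and -0.0034 for PSMA2. PSMB8 between the horns was then -0.053. With normexp PSMB1 was 0.038 for the RB effect in CAR against ICAR. Without slide 1, which leaves non-RB cows 1 and 2 with unequal areas and horns, PSMD6 over the cow means was -0.0089 and the RB effect on PSMA2 between the horns 0.056.

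Leaving out 1 cow at a time, the range crossed 0 for CANX (-0.57 to 0.17) and PSMB2 (-0.063 to 0.62) in ipsilateral ICAR, PSMA2 (-0.31 to 0.93) and PSMB1 (-0.78 to 0.061) in contralateral CAR, DNAJB11 (-0.11 to 1.07) and PSMA2 (-0.11 to 0.71) in contralateral ICAR and PSMD4 over the cow means (-0.10 to 0.49). It also did for HSPA1B (-0.017 to 0.25) and PSMB8 (-0.0069 to 0.21) between the horns, and for DNAJB11 (-0.94 to 0.14) and PSMD6 (-0.11 to 0.48) in the RB effect in CAR against ICAR. The lone cows were RB 3 for CANX, RB 2 for HSPA1B and a non-RB cow for the others.

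RB and non-RB cows share only a number (11 of 16 pairs had r above 0.1). With the replicate block 0 members were called in any comparison. With the cow as block 4 chaperones passed an unadjusted p between CAR and ICAR, against 1 without it, and the share of all probes under that fit is not given. By the scanner's background test, signal was short for HSPC028 only, which was not tested in ipsilateral ICAR. Other members passed that test while dim, such as DNAJC5, DNAJC6 and PSMB1. The contralateral comparisons include the 2 arrays of slide 1, and 4 cows a group bound every interval.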

Other observations

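Other genes of folding and breakdown, outside the names searched, were measured by 30 probes, among them co-chaperones, genes of endoplasmic reticulum stress, partners of the proteasome and members known only by accession. None passed the adjusted limma test in any comparison. HSPA13, an HSP70 relative bound to microsomes, was higher in RB cows in ipsilateral ICAR by 0.59 with an unadjusted limma p of 0.0442. PDIA3, the disulphide isomerase that works with CALR and CANX, was higher in RB cows in contralateral CAR by 1.44 with an unadjusted limma p of 0.0384, and its RB effect was lower in the ipsilateral than in the contralateral horn by -0.51. In each of these comparisons 1 of the 30 probes passed an unadjusted limma p of 0.05. The shares of all probes were 3.69% in ipsilateral ICAR, 1.74% in contralateral CAR and 5.98% for the RB effect between the horns. The contralateral values include arrays of slide 1. HSP90B1, the HSP90 of the endoplasmic reticulum, differed by -0.04 over the cow means.

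Of the names without a chaperone or proteasome role, HSPBAP1 stood out by cow, with a share of 78.0% by the measure given for HSPA1A. Its mean deviations were 0.54, -0.33, -0.37 and 0.16 in RB cows 1 to 4, and all arrays of RB cows 2 and 3 were on 1 slide, so slide and cow cannot be told apart there. HSPC028 was well above background on 14 of 32 arrays. The second probe of DNAJA2 had a CAR minus ICAR difference of 0.21, where the one described had -0.28, and neither passed the test.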
